A study of Mus musculus with 6 samples.

Results

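The 10 genes described here form the thermogenic programme of the brown adipocyte. They were taken by symbol from the deposited expression table, which lists 55487 genes, and each of the 10 symbols matched 1 row. RNA had been sequenced in 6 libraries of mouse aorta from which the outer layer, the adventitia, had been dissected away, leaving intima and media. In 3 libraries the marrow recipients were labelled ChemR23e/e Apoe-/- (Apoe-/-►ChemR23e/eApoe-/-), here called labelled deficient, and in 3 they were labelled Apoe-/- alone (Apoe-/-►Apoe-/-), here called labelled control. Recipients of both groups thus lacked Apoe, which raises plasma cholesterol. Both had received Apoe-/- marrow that was not labelled ChemR23e/e, so the labelled deficiency lay in the recipients and not in the donor marrow. Transplantation took place at 8 to 10 weeks of age and was followed by 4 weeks of recovery and 6 weeks of Western diet (21% fat, 0.15 to 0.2% cholesterol) in all animals. ChemR23, encoded by Cmklr1, is the receptor of the adipokine chemerin. No source used here says what the e allele removes, which aortic segment was dissected or how many animals stand behind a library.

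Brown adipocytes burn fatty acids to make heat. Noradrenaline acting on the beta-3 adrenergic receptor raises cAMP, which releases fatty acids from lipid droplets and switches on transcription of Ucp1. The UCP1 protein then lets protons leak back across the inner mitochondrial membrane, so that respiration yields heat in place of ATP. In mice the fat around the thoracic aorta resembles brown fat, while that around the abdominal aorta is closer to white fat. Some of the 10 genes are also used outside fat: Prdm16 in arterial endothelial and smooth muscle cells, Ppargc1a and the Cox7a1 and Cox8b isoforms in heart and muscle, and Dio2 in several tissues.

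RefSeq promoter windows (GRCm38.p6, 250 bases before to 50 after the annotated start) were found for 6 of the 10 genes, Ucp1, Cox7a1, Cox8b, Ppargc1a, Dio2 and Prdm16. Shown 5′ to 3′ on the strand of the gene are those of Ucp1, Cox7a1 and Cox8b, whose RNA was high and low in the same libraries, and that of Dio2, whose RNA varied much less. Capitals mark matches, on either strand, to the TATA box TATAAA, the nuclear receptor motif AGGTCA or the cAMP response element TGACGTCA. No 2 of the marked matches overlap.
Ucp1, chr8:83290098-83290397, plus strand: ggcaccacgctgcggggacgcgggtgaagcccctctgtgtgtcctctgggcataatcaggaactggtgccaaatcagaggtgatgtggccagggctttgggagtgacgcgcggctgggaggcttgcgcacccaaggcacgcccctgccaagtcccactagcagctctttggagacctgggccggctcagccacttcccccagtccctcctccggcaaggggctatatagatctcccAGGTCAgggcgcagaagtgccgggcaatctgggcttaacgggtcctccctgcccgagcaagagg
Cox7a1, chr7:30183921-30184220, plus strand: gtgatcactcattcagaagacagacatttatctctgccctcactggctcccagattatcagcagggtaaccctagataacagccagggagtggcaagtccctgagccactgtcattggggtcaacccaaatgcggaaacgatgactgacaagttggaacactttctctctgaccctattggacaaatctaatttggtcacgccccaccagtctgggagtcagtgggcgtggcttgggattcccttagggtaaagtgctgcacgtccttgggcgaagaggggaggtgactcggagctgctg
Cox8b, chr7:140900397-140900696, minus strand: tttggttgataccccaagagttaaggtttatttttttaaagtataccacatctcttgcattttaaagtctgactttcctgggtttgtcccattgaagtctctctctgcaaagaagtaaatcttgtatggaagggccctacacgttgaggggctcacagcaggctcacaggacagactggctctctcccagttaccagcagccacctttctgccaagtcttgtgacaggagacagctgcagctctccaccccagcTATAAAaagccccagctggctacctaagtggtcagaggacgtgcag
Dio2, chr12:90738989-90739288, minus strand: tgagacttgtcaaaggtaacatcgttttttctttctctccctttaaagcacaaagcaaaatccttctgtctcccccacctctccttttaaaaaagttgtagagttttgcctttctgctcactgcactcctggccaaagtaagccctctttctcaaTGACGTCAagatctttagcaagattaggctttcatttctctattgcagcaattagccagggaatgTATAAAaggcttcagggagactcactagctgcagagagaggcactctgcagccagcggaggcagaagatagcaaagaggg
The Ucp1 window held 1 AGGTCA, which began at base -14 from the annotated start, and no match to the other letters. In the Cox8b window 1 TATAAA began at base 5 of the annotated transcript. A TGACGTCA at base -95 and a TATAAA at base -30 were found for Dio2. The whole Dio2 window lies upstream of the gene span given below, which comes from GENCODE. Its base positions therefore count from the RefSeq start, which differs from the start of that span. The windows of Cox7a1, Ppargc1a and Prdm16 held none of the 3 motifs. Of 32544 distinct promoter windows in the reference, 13.6% held TATAAA, 16.2% AGGTCA and 1.8% TGACGTCA, so a match is a description of the letters only.

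Gene-assigned reads numbered 30887855 to 38600604 per library, and the smooth muscle marker Acta2 was high in all 6 (613377 to 835257 normalized counts in the labelled-deficient and 587012 to 664785 in the labelled-control libraries). Cmklr1 itself did not fall with the label, at 2388, 1788 and 1551 normalized counts in the labelled-deficient libraries against 1396, 1028 and 1720 in the labelled-control ones (log2 difference 0.47, SE 0.21, limma adjusted p = 0.427). The deposited mean named "treated" equals the mean of the 3 libraries labelled control. All directions below therefore hold between the libraries as labelled. Xist was high in labelled-deficient replicates 1 and 2 (16083 and 13146) and low in replicate 3 (373) and the controls (8.87 to 22.0), while the Y-linked Ddx3y was at 8.54 and 0 in those replicates and at 6058 to 6796 in the other 4 libraries. Libraries with high Xist and almost no Ddx3y were thus found in the labelled-deficient group only. This sex-linked pattern is partly confounded with the label, and the differences between groups below cannot be told apart from it. Values below are normalized counts, gene reads that the authors divided by a size factor per library.

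Ucp1 (ENSMUSG00000031710, chr8:83290352-83298452 on GRCm38, plus strand) was abundant in some libraries of both groups and all but absent from others. Labelled-deficient replicates 1, 2 and 3 had 7.60, 7079 and 5.05 normalized counts, against 1711, 5365 and 0 in labelled-control replicates 1, 2 and 3. In reads these were 8, 6560 and 5 against 1989, 4837 and 0. Labelled-deficient replicate 2 and labelled-control replicates 1 and 2 were thus high, the other 3 libraries were at or near 0, and the groups overlapped over their whole range. The count of 0 in labelled-control replicate 3 allows up to 3.01 normalized counts by the limit of 3 reads, and the exact 95% Poisson interval in labelled-deficient replicate 1 was 3.28 to 15.0, counting error only. The group means nearly coincided, 2364 ± 4083 in labelled-deficient and 2359 ± 2741 in labelled-control libraries (SD, n = 3 each). On the log2 scale the difference was -1.55 (SE 3.65, 95% interval -9.98 to 6.89, limma adjusted p = 0.909).

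Elovl3 (chr19:46131897-46135694, plus strand), a fatty acid elongase that cold induces in brown fat, followed the same libraries at a far lower level. Its normalized count was 0, 108 and 0 in the labelled-deficient libraries, against 16.3, 57.7 and 0 in the labelled-control ones. The 3 libraries in which Ucp1 was at or near 0 held no Elovl3 read. The group means were 36.0 ± 62.3 in labelled-deficient and 24.7 ± 29.7 in labelled-control libraries (SD, n = 3 each). The mean of log2 values went the other way, with a difference of -1.07 (SE 2.06, limma adjusted p = 0.885), while DESeq2 and edgeR on recovered reads gave 0.54 and 0.56.

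Cidea (chr18:67343604-67367785, plus strand), a lipid droplet protein that promotes droplet fusion in brown adipocytes, was highest in the same 3 libraries, in another order, and was well above 0 in all 6. It was at 148, 2222 and 512 normalized counts in the labelled-deficient libraries and at 1462, 3804 and 521 in the labelled-control ones. Labelled-deficient replicate 3, with 5 Ucp1 reads and 1 read of the adipocyte hormone Adipoq, still held 512 normalized counts of Cidea. The group means were 960.5 ± 1107 and 1929 ± 1691, with a difference of -1.37 (SE 1.0, limma adjusted p = 0.645).

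The respiratory chain members Cox7a1 (chr7:30184144-30186078, plus strand) and Cox8b (chr7:140898945-140900446, minus strand) encode the heart and muscle type isoforms of 2 small subunits of cytochrome c oxidase, which brown adipocytes also use. Cox7a1 was at 13.3, 501 and 10.1 normalized counts in the labelled-deficient libraries and at 163, 508 and 9.02 in the labelled-control ones. Cox8b was at 3.8, 1069 and 0 against 329.5, 1383 and 38.1. Both were high in labelled-deficient replicate 2 and labelled-control replicate 2, intermediate in labelled-control replicate 1 and low elsewhere, and the groups overlapped. Differences were -1.13 (SE 1.75) for Cox7a1 and -3.92 (SE 2.43) for Cox8b, with limma adjusted p = 0.853 and 0.579.

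The widely expressed partners of these isoforms varied little. Cox7a2 was at 3432, 4543 and 3170.4 normalized counts in the labelled-deficient libraries and at 3605, 4651 and 3708 in the labelled-control ones. Per kilobase of exon, Cox7a1 made up 0.679, 16.3 and 0.559% of the Cox7a1 and Cox7a2 signal in labelled-deficient replicates 1, 2 and 3, and 7.37, 16.2 and 0.427% in the labelled-control replicates. For Cox8b and Cox8a the shares per kilobase were 0.119, 23.6 and 0% in the labelled-deficient libraries against 11.2, 27.5 and 1.39% in the labelled-control ones. In the libraries with the most Ucp1 the shares were thus highest, labelled-control replicate 1 lay between, and the other 3 libraries were at 1.39% or less.

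**Figure D1:**
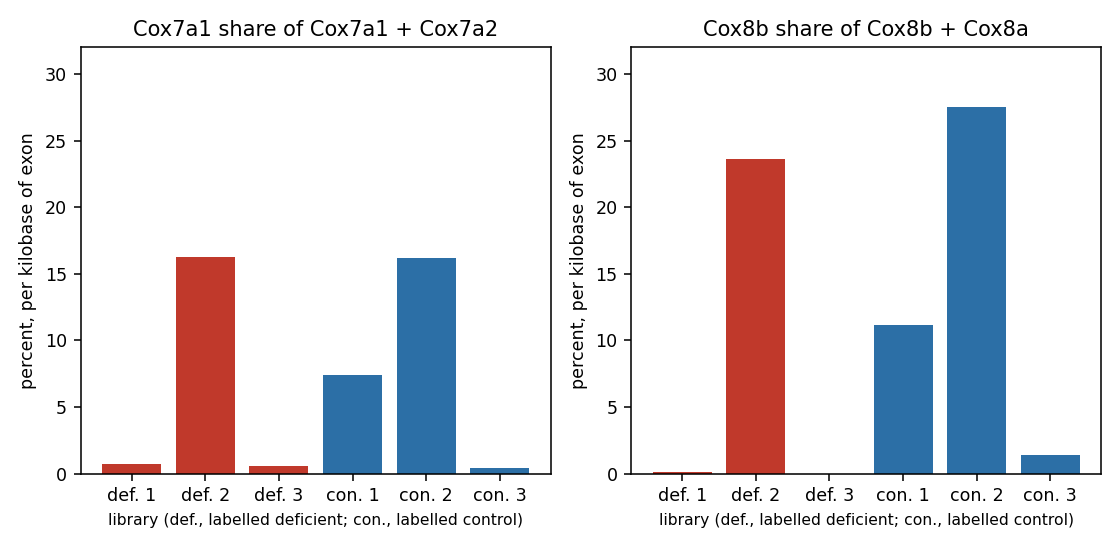
Share of the signal of a pair of cytochrome c oxidase subunit isoforms that came from Cox7a1 (left) and Cox8b (right), in percent per kilobase of exon, for each of the 6 libraries. Bars reach 16.3 and 23.6% in labelled-deficient replicate 2 and 16.2 and 27.5% in labelled-control replicate 2, and stay at 1.39% or less in labelled-deficient replicates 1 and 3 and labelled-control replicate 3.

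The members at the cell surface were Slc36a2 and Adrb3. Slc36a2 (chr11:55158470-55185077, minus strand), a proton-coupled amino acid transporter used as a surface marker of brown adipocytes, was at 6.65, 803 and 0 normalized counts in the labelled-deficient libraries and at 286, 1820.2 and 162 in the labelled-control ones. Adrb3 (chr8:27225776-27250616, minus strand), the beta-3 adrenergic receptor of both white and brown adipocytes in mice, was at 0.949, 180.2 and 0 against 60.2, 901 and 219. Labelled-control replicate 3, which held no Ucp1 read, thus held 162 Slc36a2 and 219 Adrb3 reads, and its Adrb3 exceeded that of labelled-control replicate 1 and labelled-deficient replicate 2. The difference for Slc36a2 was -4.59 (SE 2.18, limma adjusted p = 0.455).

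Adrb3 had the largest difference of the 10 genes, -5.02 (SE 1.87, 95% interval -9.36 to -0.69). It did not pass the test over all genes (limma adjusted p = 0.343), and labelled-deficient replicate 2 lay within the range of the controls. Of its 3376 exonic bases, 839 overlap the gene Gm45470 on the opposite strand, and no source used here gives the strand setting of the counting, so reads of the pair cannot be told apart.

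Dio2 (chr12:90724552-90738438, minus strand), the deiodinase that turns thyroxine into active thyroid hormone inside the cell, was measured well in all libraries. It was at 408, 947 and 795 normalized counts in the labelled-deficient libraries and at 666, 1130.2 and 721 in the labelled-control ones. The lowest value was in labelled-deficient replicate 1, but replicate 3, with 1 Adipoq read, was above 2 of the 3 controls. Group means were 717 ± 278 and 839 ± 254 (difference -0.27, SE 0.32, limma adjusted p = 0.789).

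The regulators were the steadiest members. Ppargc1a (chr5:51454250-51567726, minus strand), the coactivator of mitochondrial biogenesis that cold induces, was at 150.0, 179 and 108 normalized counts in the labelled-deficient libraries and at 216, 214 and 161 in the labelled-control ones. Only labelled-deficient replicate 2 exceeded the lowest control, and the difference was -0.45 (SE 0.22, limma adjusted p = 0.461). Prdm16 (chr4:154316125-154636873, minus strand), the zinc finger regulator that fixes brown adipocyte identity, was at 4989, 4319.6 and 6647 against 5456, 4257 and 4305. Its highest value was in labelled-deficient replicate 3, the library with the lowest summed level of general adipocyte markers. The difference was 0.17 (SE 0.16, limma adjusted p = 0.73).

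**Figure D2:**
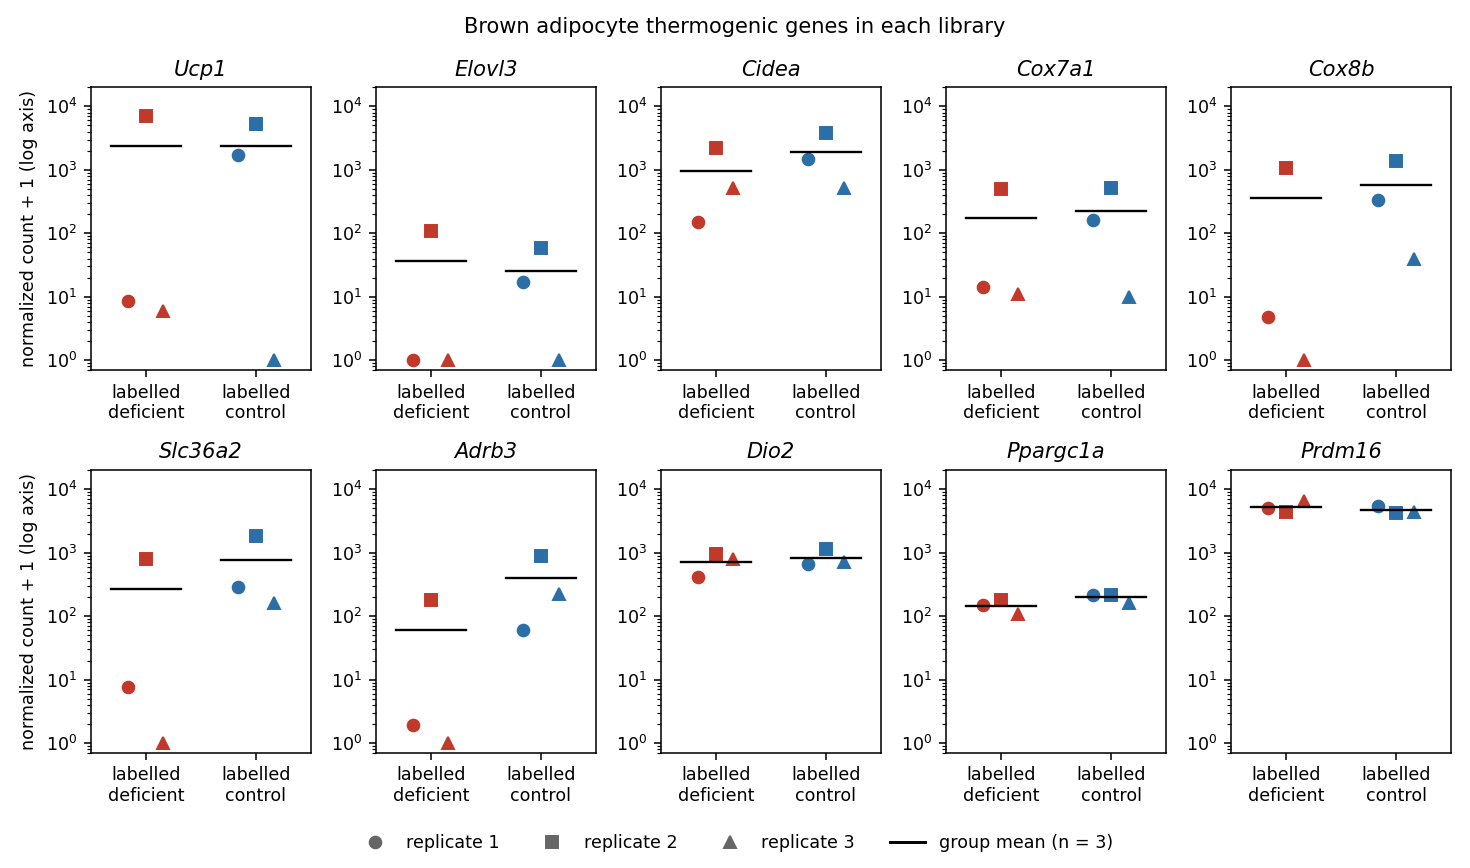
Normalized count plus 1 (log axis) of each of the 10 genes in the 3 labelled-deficient (red, left) and 3 labelled-control (blue, right) libraries, with a symbol per replicate and a line at the group mean. Ucp1 spans 0 to 7079 within and across groups, while Prdm16 stays between 4257 and 6647.

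The spread over libraries separated the members by size. The SD of log2(normalized count + 1) over the 6 libraries was 5.66 for Ucp1, 4.29 for Cox8b, 4.17 for Slc36a2, 3.97 for Adrb3, 3.18 for Elovl3, 2.75 for Cox7a1 and 1.70 for Cidea, against a median of 0.262 over all 20669 genes tested. It was 0.504 for Dio2, 0.37 for Ppargc1a and 0.256 for Prdm16. Of all genes tested, 98.9% varied less than Cidea and 99.99% less than Ucp1, but only 49.4% varied less than Prdm16. The 10 genes together took 6033, 16132 and 7989 reads in labelled-deficient replicates 1, 2 and 3, against 12047, 17527 and 6126 in the labelled-control replicates. Prdm16 alone made up 87.1, 24.8 and 82.3% of those reads in the labelled-deficient libraries and 52.6, 21.9 and 70.1% in the labelled-control ones. In normalized counts per kilobase of exon, averaged over the 6 libraries, the order was Ucp1 (1443), Cox8b (1307), Cidea (1296), Prdm16 (536), Cox7a1 (375), Slc36a2 (158), Dio2 (134), Adrb3 (67.2), Ppargc1a (26.0) and Elovl3 (15.4). The leading 3 did not differ beyond their spread over libraries: per kilobase Ucp1 ranged from 0 to 4327, Cox8b from 0 to 3842 and Cidea from 133 to 3412. The ranges of every other pair of neighbours in that order overlapped as well.

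The comparison between the groups asked whether the thermogenic genes differed in aortas labelled deficient. All 10 genes had a mean of at least 1 normalized count and were tested, and 0 of 10 passed limma (an adjusted p under 0.05), where 0.135% of the 20669 genes tested did (0.0726% higher and 0.0629% lower). The unadjusted limma p was under 0.05 for 1 of 10, Adrb3, where 12.2% of all genes were. The DESeq2 and edgeR tests on recovered reads called 0 of 10, where they called 4.33 and 0.00484% of genes. The groups overlapped for all 10, where 17.0% of genes had groups that did not. The log2 difference was below 0 for 9 and above 0 for 1, with a median of -1.25 against -0.01 over all genes tested, and the standard errors had a median of 1.81 against 0.194.

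On recovered reads DESeq2 gave differences nearer 0 for the variable members, -0.71 for Cox8b, -1.49 for Slc36a2, -0.37 for Cox7a1 and -2.70 for Adrb3, and 0.0031 for Ucp1. The direction rested on single libraries for 4 genes. Without labelled-control replicate 2 the difference became 0.79 for Ucp1, 0.20 for Elovl3 and 0.09 for Cox7a1. Without labelled-deficient replicate 3 it was 0.24 for Ucp1 and 0.05 for Elovl3, and without labelled-deficient replicate 1 it was 0.05 for Elovl3 and 0.09 for Dio2. When the test was restricted to the 4 libraries that expressed Ddx3y (labelled-deficient replicate 3 and the 3 controls), the differences were -5.11 (SE 5.01) for Ucp1, -7.85 (SE 1.47) for Adrb3 and 0.52 (SE 0.17) for Prdm16, and 0 of 10 passed limma (lowest adjusted p = 0.756, the lone library being taken to vary like the controls).

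**Figure D3:**
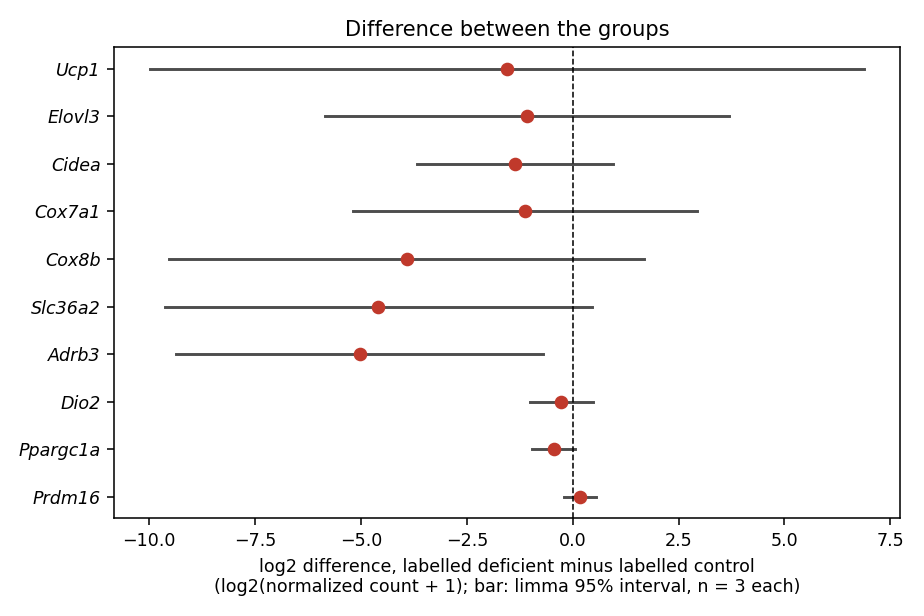
Log2 difference, labelled deficient minus labelled control, of log2(normalized count + 1) for the 10 genes, with limma 95% intervals (n = 3 each). The interval of Ucp1 runs from -9.98 to 6.89 and that of Prdm16 from -0.21 to 0.55, and that of Adrb3 alone lies below 0 before adjustment.

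Among 15 general adipocyte markers, some varied over the libraries as widely as the variable members and others hardly at all. Adipoq, the hormone adiponectin, was at 13.3, 1711 and 1.01 normalized counts in the labelled-deficient libraries and at 575, 5082 and 1009.9 in the labelled-control ones. Plin1, the coat protein of adipocyte lipid droplets, was at 8.54, 1487 and 1.01 against 452, 3435 and 658. Fabp4 was at 1930, 12090 and 1705 against 7536, 30878 and 8228. The droplet protein Plin4, at 11427 to 16289 in the labelled-deficient and 15032 to 16649 in the labelled-control libraries, had an SD of log2 values of 0.209, below the median of 0.262 over all genes tested. Lpl was higher in labelled-deficient replicate 1 (6062) than in labelled-control replicates 1 and 3 (2588 and 3420.4). The summed level of the 15 markers was 24434 to 62411 in the labelled-deficient and 38000 to 121530 in the labelled-control libraries. Of these 15 genes 0 passed limma and 7 had an unadjusted limma p under 0.05, where 12.2% of all genes tested did. The difference was below 0 for 13, with a median of -2.37 against -0.01 over all genes tested. The hormone leptin (Lep), chosen after its values were seen, was at 0 in labelled-deficient replicates 1 and 3. DESeq2, which called 4.33% of all genes, called it lower (log2 -4.67, adjusted p = 0.00198). The part of fat content in the thermogenic values was not tested, and in bulk tissue fewer adipocytes and less RNA per adipocyte cannot be told apart.

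**Figure D4:**
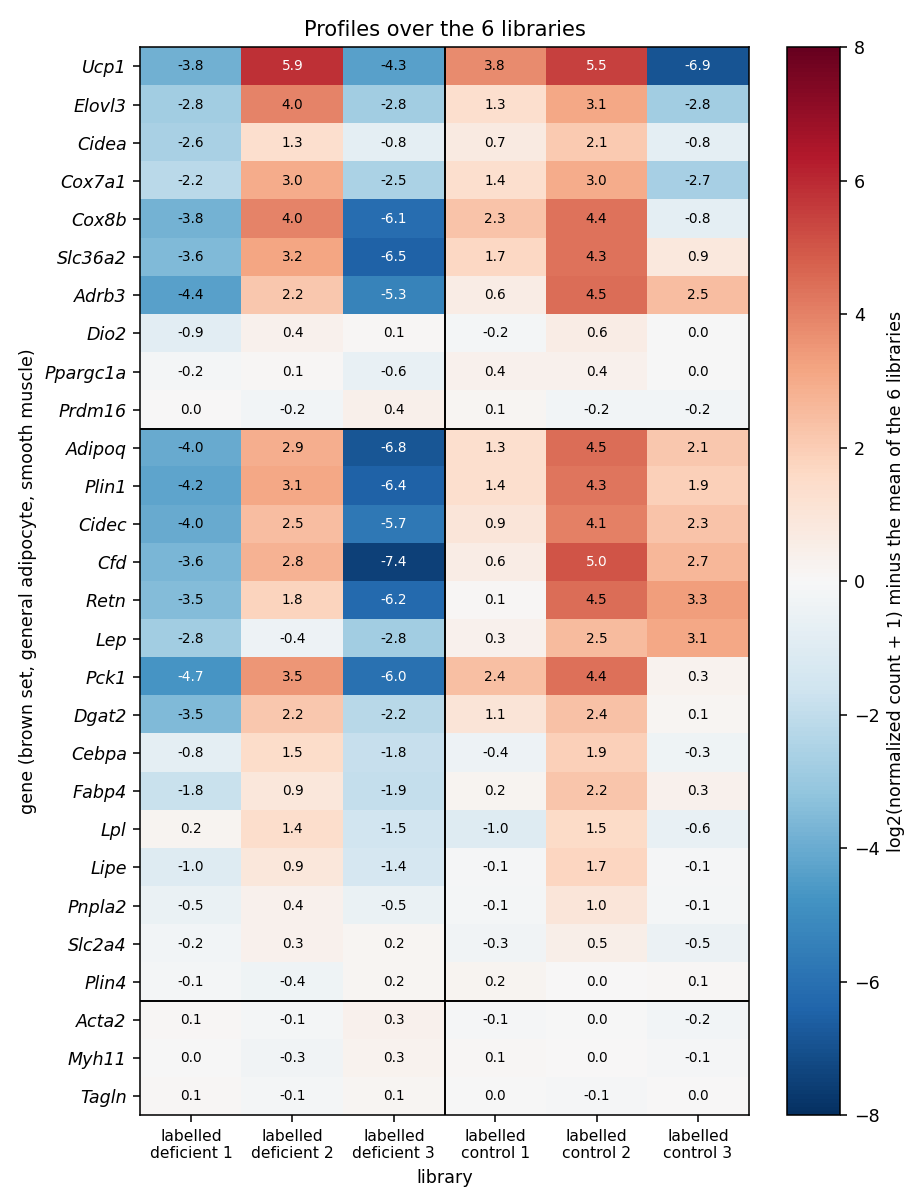
Log2(normalized count + 1) minus the mean of the 6 libraries for the 10 thermogenic genes (top), 15 general adipocyte markers (middle) and 3 smooth muscle markers (bottom), with labelled-deficient libraries left of labelled-control ones. Ucp1 stands at -6.94 in labelled-control replicate 3, where Adipoq stands at 2.14, while Acta2 stays between -0.19 and 0.32.

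In labelled-control replicate 3 some brown genes and some general adipocyte markers parted. Relative to each gene's mean log2 value over the 6 libraries, the median there was -0.48 for the 10 members and 0.30 for the 15 markers. The members Adrb3 (2.45) and Slc36a2 (0.86) stood above their means. The markers Lpl (-0.61), Slc2a4 (-0.45), Cebpa (-0.33), Pnpla2 (-0.13) and Lipe (-0.07) stood below theirs. That library held the third highest Adipoq level of the 6 libraries and the highest Lep (59.1, against 4.32 in labelled-deficient replicate 2 and 38.8 in labelled-control replicate 2), yet 0 reads of Ucp1 and Elovl3 and 9 reads of Cox7a1. Per Adipoq count, Ucp1 stood at 4.14 in labelled-deficient replicate 2, against 2.98, 1.06 and 0 in labelled-control replicates 1, 2 and 3. In labelled-deficient replicates 1 and 3 the ratio rests on 8 Ucp1 and 14 Adipoq reads and on 5 and 1. The log2 ratio averaged 0.97 ± 1.49 in the labelled-deficient and -2.78 ± 6.28 in the labelled-control libraries (SD, n = 3 each; exact two-sided permutation test, p = 0.5, the smallest possible being 0.1). Without labelled-control replicate 3 the difference of 3.75 became 0.14.

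Against Adipoq the members fell in different orders. Labelled-deficient replicates 1 and 3 held only 14 and 1 Adipoq reads, so ratios there are poorly measured. For Slc36a2 the ratio was 0.5, 0.469 and 0 (7, 744 and 0 reads) in the labelled-deficient libraries. In the labelled-control ones it was 0.497, 0.358 and 0.161. For Adrb3 it was 0.0714, 0.105 and 0 (1, 167 and 0 reads) against 0.105, 0.177 and 0.217. Cox8b stood at 0.286, 0.625 and 0 (4, 991 and 0 reads) against 0.573, 0.272 and 0.0377. Cox7a1 stood at 1, 0.293 and 10 (14, 464 and 10 reads) against 0.283, 0.1 and 0.00893. Labelled-control replicate 3 was thus the lowest control for Ucp1, Cox8b, Cox7a1 and Slc36a2 relative to Adipoq and the highest for Adrb3. In the 3 libraries with Ucp1, the level of Cox7a1 relative to Ucp1 was 7.07% in labelled-deficient replicate 2, against 9.50 and 9.47% in labelled-control replicates 1 and 2, and that of Elovl3 was 1.52% against 0.955 and 1.08%. Adrb3 relative to Ucp1 varied more, at 2.55% against 3.52 and 16.8%.

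**Figure D5:**
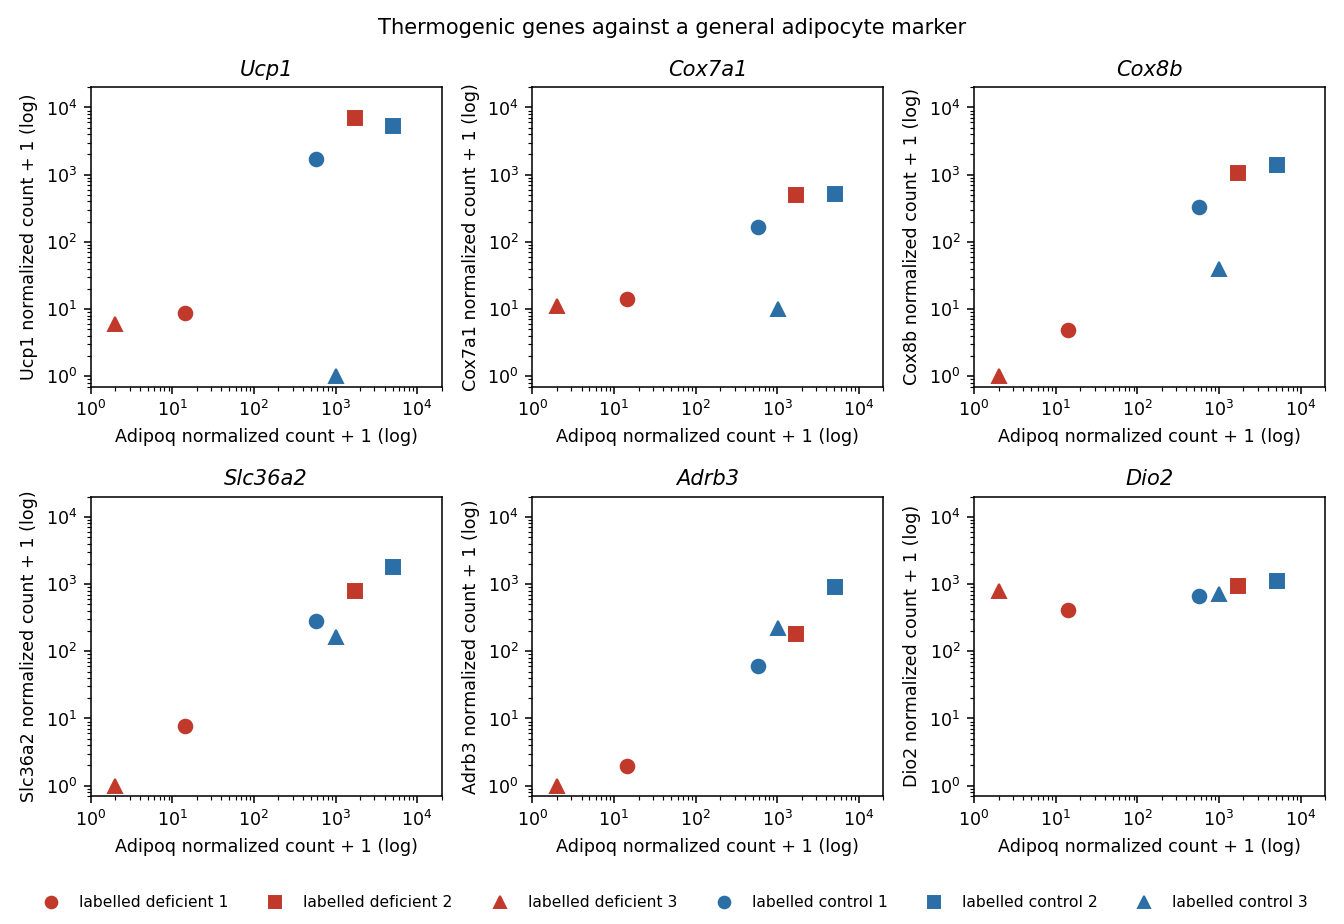
Normalized count plus 1 of Ucp1, Cox7a1, Cox8b, Slc36a2, Adrb3 and Dio2 against that of Adipoq (log axes), with a point for each of the 3 labelled-deficient (red) and 3 labelled-control (blue) libraries. Labelled-control replicate 3, at 1009.9 Adipoq counts, lies at 0 Ucp1 and 9.02 Cox7a1 counts but at 219 Adrb3 counts, and Dio2 stays between 408 and 1130.2 throughout.

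The genes whose centred log2 profile over the 6 libraries lay closest to that of Ucp1, among 15147 other genes with a mean of at least 10, were Gm10032, Slc27a2, Cpn2, Otop1, Gys2, Aspg, Gm14719 and Kng2, with root mean square differences of 2.13 to 2.86 log2 units. The closest members were Elovl3 (2.45), Cox7a1 (2.73) and Cox8b (2.82), and Prdm16 lay farthest (5.24). Slc27a2, a fatty acid transporter and acyl-CoA synthetase, was at 1.90, 311 and 0 normalized counts in the labelled-deficient libraries and at 51.6, 276 and 2.004 in the labelled-control ones. Otop1, a proton channel, was at 1.90, 337 and 2.02 against 79.2, 322 and 5.01. Gys2, a glycogen synthase, was at 1.90, 122 and 0 against 22.4, 207 and 2.004. Each was higher in the 3 libraries with Ucp1 than in the others, which follows from choosing them by likeness to Ucp1 in these libraries.

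In the pathway around the 10 genes, 0 listed genes passed limma in any of 7 lists. For every list below, the counts stand beside an unadjusted limma p under 0.05 in 12.2% of all genes tested. The medians stand beside -0.01 over all genes tested. Among 22 transcriptional regulators of brown fat, 5 were above and 17 below 0 (median -0.13), and 2 had an unadjusted p under 0.05. The most abundant were Ctbp1 (log2 difference -0.03, SE 0.07), a corepressor that binds PRDM16, Gabpa (-0.04, SE 0.08), a factor for nuclear genes of mitochondrial proteins, and Tle3 (0.05, SE 0.09), a corepressor that favours white fat genes. Ebf2, a factor that marks brown precursors, was chosen after its values were seen. It was at 19.9, 186 and 21.2 normalized counts in the labelled-deficient libraries and at 82.6, 257 and 57.1 in the labelled-control ones. Pparg, Rxrg and Irf4 were likewise highest in the libraries with high Ucp1. Zic1 and Lhx8, also chosen after their values were seen, were at 0 in labelled-deficient replicate 2, the library with the most Ucp1. Both were low throughout, with no library above 7.01 normalized counts for Zic1 or 8.87 for Lhx8.

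The 19 genes of adrenergic signalling and lipolysis had a median of -0.25, with 4 above and 15 below 0 and 2 at an unadjusted p under 0.05. The adenylyl cyclases Adcy5 (log2 difference -0.20, SE 0.16) and Adcy6 (-0.03, SE 0.09) and the stimulatory G protein gene Gnas (-0.03, SE 0.08) were the most abundant. In the same list Plin5, a droplet protein of oxidative tissues chosen after its values were seen, was at 0.949, 285 and 0 normalized counts in the labelled-deficient libraries and at 114, 425 and 16.03 in the labelled-control ones. It was high in the 3 libraries with Ucp1. Fatty acid uptake and oxidation genes, of which 20 of 21 were tested, had a median of -0.16 with 5 above and 15 below 0, and 1 had an unadjusted p under 0.05. Lpl, which releases fatty acids from lipoproteins, differed by 0.08 (SE 0.82), the acyl-CoA synthetase Acsl1 by -0.46 (SE 0.31) and the dehydrogenase Acadm by -0.24 (SE 0.25).

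Heat cycles that do not need UCP1, such as creatine and calcium cycling, had 11 tested genes with a median of 0.11. The calcium pump Atp2a2 differed by 0.08 (SE 0.11), creatine kinase Ckb by 0.17 (SE 0.14) and the calcium release channel Ryr2 by -0.30 (SE 0.11, limma adjusted p = 0.321), and 7 genes were above and 4 below 0, with 2 at an unadjusted p under 0.05. Among 18 tested paralogs of the members, 9 were above and 9 below 0 (median -0.01, 2 at an unadjusted p under 0.05). Cox4i1 (-0.13, SE 0.11), Cox6a1 (0.08, SE 0.12) and Cox8a (0.08, SE 0.14), all subunits of cytochrome c oxidase, were the most abundant. Ucp3, the uncoupling protein of muscle, was chosen after its values were seen and was at 2.85, 269.8 and 3.03 normalized counts in the labelled-deficient libraries and at 43.0, 189 and 25.05 in the labelled-control ones.

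Of 13 tested beige adipocyte genes and brown adipocyte secreted factors, 5 were above and 8 below 0 (median -0.18). The most abundant were Vegfa (-0.23, SE 0.19), an angiogenic factor, Letmd1 (0.02, SE 0.22), a mitochondrial protein needed for heat production in mouse brown fat, and P2rx5 (-0.18, SE 0.14), a purinergic receptor on brown adipocytes. Tmem26, a surface marker of beige adipocytes, was the 1 gene of this list with an unadjusted p under 0.05. It was chosen after its values were seen and was at 218, 422 and 235 normalized counts in the labelled-deficient libraries and at 96.4, 102 and 134 in the labelled-control ones, a difference of 1.34 (SE 0.27, limma adjusted p = 0.109). The groups did not overlap for Tmem26, where 17.0% of all genes tested had groups that did not. Labelled-deficient replicates 1 and 3, in which Ucp1 was near 0, were above all controls. The DESeq2 test on recovered reads called Tmem26 (log2 1.39, SE 0.29, adjusted p = 1.46e-04), where it called 4.33% of all genes. Other genes of the list went both ways, with groups that overlapped. Hoxc9 differed by -1.47 (SE 0.96), Tbx1 by -0.07 (SE 0.20), Tnfrsf9 by 1.12 (SE 0.63) and Epsti1 by 0.60 (SE 0.34).

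Thyroid hormone action had 8 tested genes with a median of -0.10, 3 above and 5 below 0 and 2 at an unadjusted p under 0.05. The receptors Thra (0.02, SE 0.07) and Thrb (-0.19, SE 0.11) and the coactivator Ncoa2 (-0.12, SE 0.08) were the most abundant. Thrsp, a thyroid hormone responsive gene of lipogenic cells chosen after its values were seen, was at 43.7, 1642 and 80.9 normalized counts in the labelled-deficient libraries and at 575, 1846 and 506 in the labelled-control ones. Unlike Dio2 in the same library, it was low in labelled-deficient replicate 3.

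Markers of skeletal and cardiac muscle were low beside those of smooth muscle. The summed level of 10 skeletal muscle markers was 119 to 186 normalized counts in the labelled-deficient and 130.2 to 204 in the labelled-control libraries, and the myosin genes Myh1 and Myh4 were at 1.01 or less in every library. Among 8 cardiac markers, summing to 403 to 586 and 479 to 608, the most abundant were Tnnt2 (176 to 269.9 in the labelled-deficient and 302 to 433 in the labelled-control libraries), Myl4 (141 to 159 and 113 to 120.2) and Actc1 (61.7 to 95.03 and 9.46 to 42.1), and Myl7 and Nppa did not exceed 2.58. Smooth muscle markers summed to 1275090 to 1713280 against 1315790 to 1401510 and endothelial markers to 65121 to 84422 against 65376 to 93306. Adventitial fibroblast markers, led by Dcn, summed to 14435 to 22130 in the labelled-deficient and 19990 to 28073 in the labelled-control libraries, although the adventitia had been stripped. Which cells these reads came from was not tested. Macrophage markers summed to 5995 to 32181 against 3973 to 8515. Most of that sum was Lyz2, at 16075, 25364 and 4270 in the labelled-deficient libraries and at 2576, 4854 and 2713 in the labelled-control ones. The log2 difference was 2.11 for Cd68 and 1.89 for Lyz2, but 0.63 for C1qa, 0.28 for Adgre1, 0.25 for Csf1r and -0.44 for Mrc1. The groups overlapped for each of these genes except Cd68. Of these 6 lists limma called 0 genes, while DESeq2 called Actc1 and Cd68 higher and Tnnt2 and Dcn lower, where it called 4.33% of all genes. The sympathetic nerve enzymes Th and Dbh were at 0 in every library. Npy of the same list was at 24.7, 5.40 and 11.1 normalized counts in the labelled-deficient libraries. In the labelled-control ones it was at 5.16, 1.11 and 8.01. Schwann cell and nerve markers summed to 159.7 to 186 against 159 to 261. The part of these markers in the thermogenic values was not tested.

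The authors' deposited table calls none of the 10 genes, at 4.38% called over 15771 genes with an adjusted p. A positive fold change there goes, for these 10 genes, with a higher mean in the labelled-control libraries. For Ppargc1a the authors' deposited table gives 0.32 on the log2 scale, with 0.463 as the adjusted p.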

How the data were processed

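Stranded mRNA libraries were sequenced in pairs of 50 bp, per the labels' protocols. The submitters' processing notes name GRCm38 and, as tools, R 4.2.0, DESeq2 1.36.0, HISAT2 2.2.1, bcl2fastq 2.20 and featureCounts 2.0.1; no source used here gives the annotation or strand setting. The deposited table holds a signal per library, which by its values is a read count per gene scaled by the authors with 1 size factor per library. Per the file headers, the authors' own log2 fold change, a test score and p-values stand beside it. Within a tolerance of 0.001, 100% of values were whole multiples of 1 step per library (0.86 to 1.11), and division by it gave reads. Libraries of a group differed beyond counting error (chi-square per degree of freedom 25.4 to 90.2). Replicates are numbered in order of deposition and pair nothing, and nothing says that they are separate animals, so p-values measure the spread between these samples, which may be technical.

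The test was limma 3.58.1 (moderated, with a mean-variance trend) on log2 of the normalized count plus 1, for 20669 genes with a mean of at least 1, two-sided, Benjamini-Hochberg adjusted over all of them; differences are labelled deficient minus labelled control and understate changes of low genes. edgeR 4.0.16 (1 gene called) and DESeq2 1.42.0 (704 called) on recovered reads were alternatives, in R 4.3.3; other calculations ran in Python 3.11.15. All 3 tools were tested on simulated data, with a spread set in advance and equal for all genes. That spread was not taken from these libraries, so the check says nothing about power or false calls for the 10 genes. Exon lengths, positions and overlaps come from GENCODE M21 (GRCm38). The naming rule took the 10 members, the 3 most abundant of each list where none was called, and the 8 closest to Ucp1. Not all of these are named. Cmklr1, Xist and Ddx3y were checks of the libraries, and Adipoq and Plin1 were set as reference genes for ratios. Any other gene named lay outside this rule, among them Lep, Cox7a2, Myh1, Myh4, Myl7, Nppa, Th and Dbh. Whether or not the text says so, such genes should be read as chosen after their values were seen. Members and lists were chosen with earlier results of these data known. Of the listed names 2 (Gyk and Prdm3) matched no row, while Mecom, the current name of Prdm3, did.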

Additional observations from a re-analysis of the deposited data

How the results depend on the processing

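None of the 10 genes was called under any of 14 alternatives (pseudocount, filter, quantile normalization, edgeR, DESeq2, each library left out, only libraries with Y-linked expression; lowest adjusted p = 0.109), and 129 of 140 log2 differences kept their direction. Ucp1 turned to 0.0031 with DESeq2 and 0.014 with edgeR, and Elovl3 to 0.54 and 0.56. DESeq2 kept the sign but moved Cox8b to -0.71, Slc36a2 to -1.49, Cox7a1 to -0.37 and Adrb3 to -2.70, and edgeR gave -0.70, -1.48, -0.37 and -2.71 for them in that order. Cidea was -0.42 without labelled-deficient replicate 1 and -0.66 without labelled-control replicate 2. With each library left out, the range was -5.40 to 0.79 for Ucp1, -3.33 to 0.20 for Elovl3, -2.90 to 0.088 for Cox7a1 and -0.52 to 0.089 for Dio2; the cause was not tested. The 28 genes called over the whole table became 704 with DESeq2, 1 with edgeR, 1 at a mean of at least 10, 91 without a filter, 0 among libraries with Y-linked expression and 0 to 427 with a library left out (427 without labelled-deficient replicate 3, 7 without labelled-control replicate 3, 0 otherwise). DESeq2 called 1 beige and secreted factor gene, Tmem26, where limma called 0, and the other pathway list counts stayed at 0 under the 9 alternatives run for lists (DESeq2, edgeR, a mean of at least 10 and each library left out). The difference in the Ucp1 to Adipoq log2 ratio was 0.14 to 5.92 with a library left out. A count of 0 in the 10 genes allows 2.85 to 3.03 normalized counts. No paired analysis was possible because the labels give no replicate numbers.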
